A study of Ovis aries with 9 samples.

Results

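The nuclear genes for the subunits of oxidative phosphorylation were followed in the longissimus dorsi, the long muscle of the back, of Chinese merino sheep fetuses. Members were the loci whose gene symbol begins with NDUFA, NDUFB, NDUFC, NDUFS, NDUFV, SDHA to SDHD, UQCR, COX4 to COX8 or ATP5, with the assembly factors NDUFAF and SDHAF left out. This gave 62 of 22605 loci and 60 genes, since NDUFA10 and NDUFS6 each had 2 loci and the one with the higher mean was kept. There were 36 genes of complex I, 4 of complex II, 1 of complex III, 3 of complex IV and 16 of complex V. The sheep annotation names most other subunits of complexes III and IV by a locus number only. For this reason 24 further genes were taken by their product description and are given apart. Most encode subunits, but the inhibitor ATPIF1 and the assembly protein COX7A2L are among them. That second group was chosen after its values had been seen.

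Muscle was taken at 85, 105 and 135 days of gestation, called D85, D105 and D135, in 3 RNA libraries each. The breed and muscle were the same on every day, and the labels name no treatment. They do not say whether libraries came from separate fetuses, so p-values measure only the spread between libraries, which may be technical. Expression was deposited as FPKM, fragments scaled to transcript length and to the mapped fragments of the library, which allows levels to be set side by side between genes.

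Oxidative phosphorylation is carried out in the inner mitochondrial membrane by the respiratory chain and the ATP synthase. Complex I takes electrons from NADH and complex II from succinate, ubiquinone carries them to complex III, and cytochrome c carries them on to complex IV, where oxygen is reduced. Complexes I, III and IV pump protons, and complex V makes ATP from the returning protons. Most subunits are encoded in the nucleus, complex II entirely, while the other complexes also hold subunits from mitochondrial DNA. In skeletal muscle some subunits of complex IV exist as a muscle isoform and a widely expressed one.

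The libraries summed to 395797 to 489270 FPKM, and 2767 to 3249 loci were listed at 0 in a library. The 4 highest loci without a gene name held 49.4% to 59.96% of the total. The muscle identity of the libraries was checked on 14 fibre markers, of which 13 are in the table. Their summed level was 8789 to 11469.5 FPKM at D85, 10909 to 14285 FPKM at D105 and 20688 to 25727 FPKM at D135. Replicate 2 of D105 stood apart in the summed markers of several other cell types. It held 7004 FPKM of fibroblast markers (2685 and 2718 FPKM in the other D105 libraries), 122 FPKM of white adipocyte markers (11.1 and 13.5), 351 FPKM of tendon markers (76.4 and 63.8) and 72.9 FPKM of cartilage markers (3.92 and 5.26). Of 7 cardiac markers 4 are in the table, without MYH6, NPPA and NPPB. These 4 were low in every library, at a summed 1.29 to 9.65 FPKM.

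Most subunit genes were higher at D135 than at either earlier day. Of the 60 genes, 39 were called higher at D135 than at D105 and 0 lower (limma on log2(FPKM + 1), Benjamini-Hochberg adjusted p under 0.05). Among all 13086 loci tested, 4.47% were called higher and 35.0% lower in that comparison. Their median log2 change was 0.66, against a median of -0.33 over all loci tested, so the members stood 0.99 above the median of all loci. With median-of-ratios scaling the split over all loci was 10.1% higher and 7.41% lower, and 46 members were called higher and 0 lower. All 3 D135 libraries were above all 3 D105 libraries for 43 of the 60 genes, and for 6.43% of all loci. Against D85, 42 were higher at D135 and 0 lower (background 6.90% higher and 39.7% lower), with a median log2 change of 0.71 and of -0.35 over all loci. Every D135 library was above every D85 library for 44 of them, and for 9.42% of all loci. The comparisons with D105 and D85 share the D135 libraries. Over any day, 42 genes passed the moderated F test, and 43.2% of all loci did.

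Between D105 and D85 no member passed the test. The count was 0 of 60 in limma, with 0.199% of all loci called. At an unadjusted p under 0.05 there were 3 genes, against 12.3% of all loci. The median log2 change was 0.11, against -0.02 over all loci. The change over the later interval minus that over the earlier one was also fitted. It passed for 0 of the 60 genes in limma (background 0.352%) and had an unadjusted p under 0.05 for 24 (24.4% of all loci). In bulk muscle, fewer cells of a type and less RNA per cell cannot be told apart, and the summed fibre markers were highest at D135 too. Of 13 tested fibre markers 7 were called higher at D135 than at D105 (4.47% of all loci). Their part in the subunit result was not tested.

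**Figure D1:**
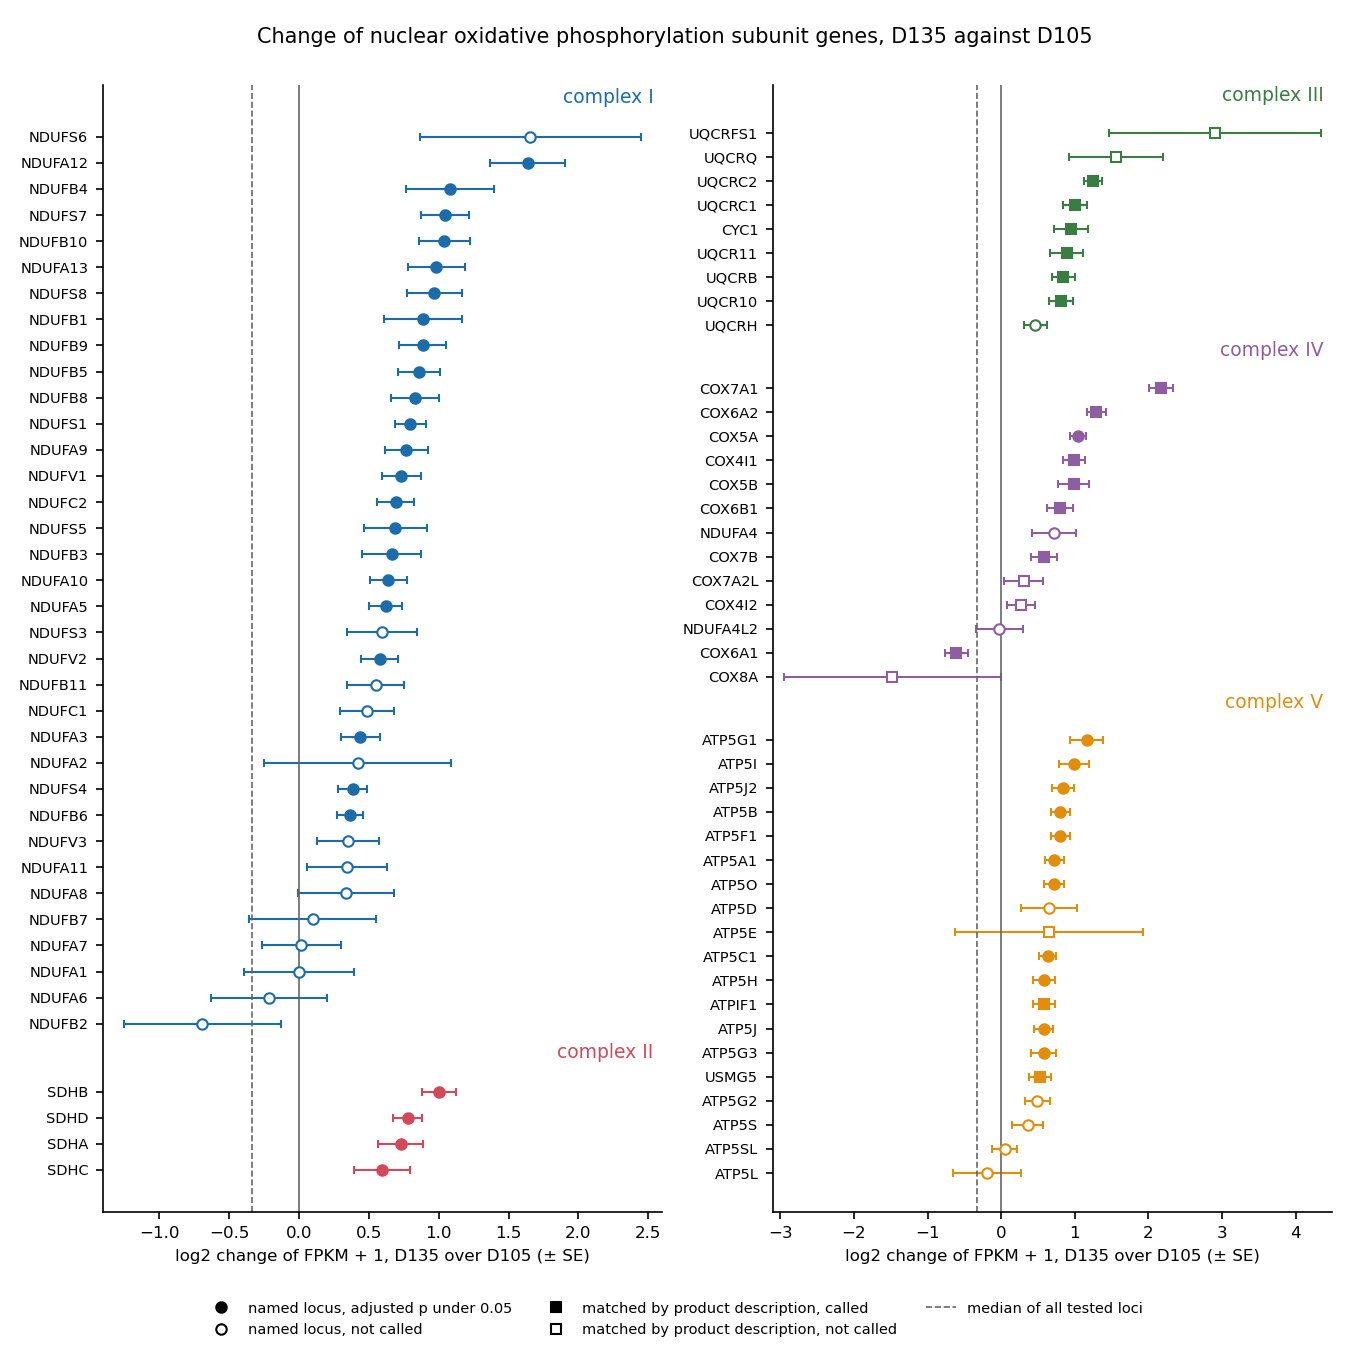
Log2 change of FPKM + 1 between D135 and D105 for the tested subunit genes, with its limma standard error as the bar; circles are named loci, squares are loci taken by product description, filled marks have an adjusted p under 0.05, and the dashed line is the median of all tested loci at -0.33. Most marks of every complex lie right of 0, with COX6A1 the one filled mark left of it.

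The median of the 60 genes was 27.6, 25.2 and 25.0 FPKM in the D85 libraries, 31.4, 27.0 and 26.7 FPKM at D105, and 42.5, 51.5 and 46.4 FPKM at D135. The 3 D135 medians thus lay above the other 6, which overlapped. The members held 0.541% to 0.635% of the summed FPKM in the D85 and D105 libraries and 0.911% to 1.2% at D135. D135 was the day of the highest mean for 55 genes, D105 for NDUFA6, NDUFB2 and NDUFA4L2, and D85 for ATP5L and ATP5SL. Within D135, replicate 2 gave the highest value for 40 of the 60 genes. Replicate 1 did so for 34 genes within D85 and for 35 within D105. UCP1, the uncoupling protein that marks brown fat cells, was listed at 0 in every D105 library and in replicates 1 and 3 of D135. Replicate 2 of D135 held 6.20 FPKM of it. Of the other 5 brown adipocyte markers, EBF2 was called lower at D135 than at D105 (-0.71, adjusted p = 0.0026) and stood at 7.69 FPKM in that library. PRDM16 was at its lowest there, 0.109 FPKM, while CIDEA, ELOVL3 and DIO2 were at 1.20, 0.122 and 0.493 FPKM, each within its range in the other libraries. The 6 markers summed to 16.9 to 17.9 FPKM at D85, 14.1 to 18.2 FPKM at D105 and 8.81 to 15.8 FPKM at D135. Among the D135 libraries, CIDEA and DIO2 were highest in replicate 2, while EBF2, ELOVL3 and PRDM16 were not. The summed white adipocyte markers were also highest there, at 78.5 FPKM, against 43.7 and 19.5 FPKM in the other D135 libraries. The part of fat cells in the subunit values was not tested. Without replicate 2 of D135, 30 genes were still called higher at D135 than at D105.

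**Figure D2:**
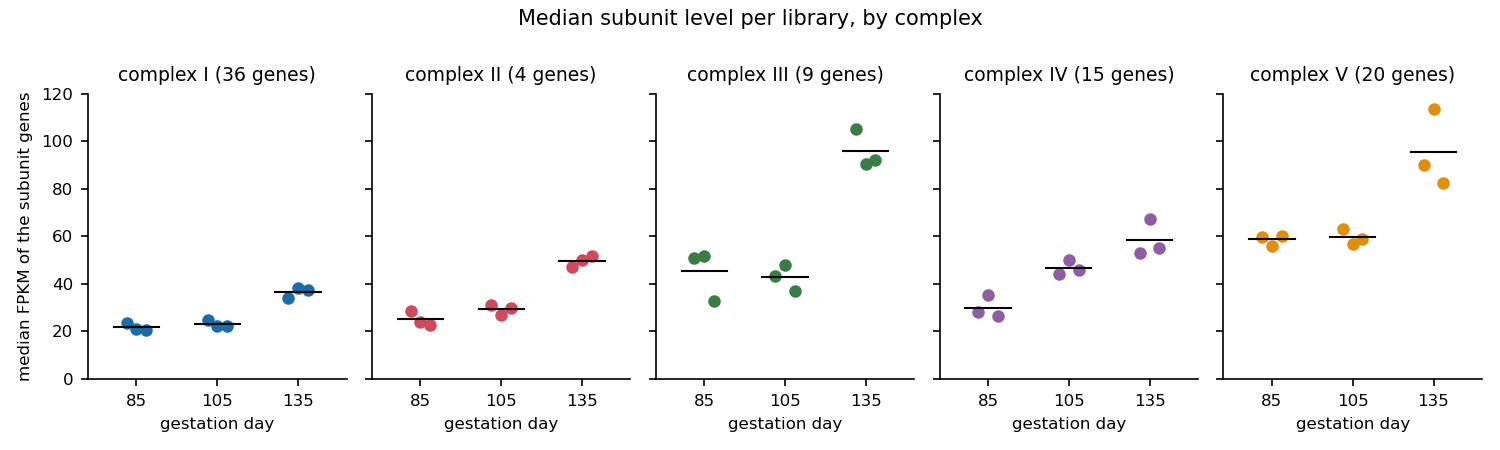
Median FPKM of the subunit genes of each complex in each library (points) with the mean of the 3 library medians (line), named loci and those taken by product description together. In each of the 5 complexes the D135 points lie above those of D85 and D105, by the least in complex IV.

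Complex I is the entry point for electrons from NADH. Of its 36 nuclear genes, 23 were called higher at D135 than at D105 and 13 did not pass, with a median log2 change of 0.65. The NDUFS and NDUFV genes include the core subunits that bind flavin and iron-sulfur clusters. Of these 11, 8 were called higher, with a median of 0.72. Of the 25 NDUFA, NDUFB and NDUFC genes, mostly accessory subunits around the core, 15 were called higher, with a median of 0.62. Over all loci 4.47% were called higher. The change was positive for all 11 of the first group and for 22 of the 25. The difference between these groups was not tested. Against D85, 24 of the 36 genes were called higher (6.90% of all loci), with a median of 0.67.

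The called complex I genes covered changes of 0.36 to 1.64. NDUFB6 had the smallest, with 12.9, 10.9 and 11.7 FPKM at D85, 13.2, 12.5 and 14.6 FPKM at D105, and 17.6, 17.5 and 17.5 FPKM at D135. Its locus is joined with TOPORS in the table. Every D135 library was above all earlier ones, and the value belongs to the joined locus. NDUFB10, an accessory subunit, had 44.5, 45.2 and 51.1 FPKM at D85, 75.8, 47.3 and 52.2 FPKM at D105, and 119, 137 and 103 FPKM at D135. Replicate 1 of D105 stood above the other early libraries, and D135 above it (log2 change 1.04 ± 0.19, adjusted p = 0.0050). The 13 genes not called were NDUFA1, NDUFA2, NDUFA6, NDUFA7, NDUFA8, NDUFA11, NDUFB2, NDUFB7, NDUFB11, NDUFC1, NDUFS3, NDUFS6 and NDUFV3. Of these, NDUFB11 and NDUFS3 were called from D85 (1.07 and 0.88, adjusted p = 0.0039 and 0.021).

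NDUFS1, the large iron-sulfur core subunit, had 17.3, 15.1 and 16.5 FPKM at D85, 17.0, 19.3 and 16.7 FPKM at D105, and 34.0, 33.4 and 27.4 FPKM at D135. The D135 libraries lay well above the rest, and the log2 change from D105 was 0.80 ± 0.11 (SE, adjusted p = 0.0022). NDUFV1, which binds the flavin that accepts electrons from NADH, had 23.8, 23.9 and 29.1 FPKM at D85, 31.7, 29.2 and 23.8 FPKM at D105, and 45.6, 53.9 and 42.9 FPKM at D135. It too was separate at D135, with a log2 change of 0.73 ± 0.14 (adjusted p = 0.0065). NDUFS7, a core subunit near the ubiquinone site, was at 10.4, 11.6 and 8.82 FPKM at D85, 15.5, 11.3 and 12.3 FPKM at D105, and 27.3, 33.7 and 23.2 FPKM at D135. Its change of 1.04 ± 0.17 (adjusted p = 0.0038) was the largest called among the NDUFS and NDUFV genes.

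The accessory subunits NDUFB8 and NDUFS5 had the highest mean levels of complex I, 81.4 and 80.3 FPKM over all libraries. NDUFB8 was at 81.2, 70.6 and 54.2 FPKM at D85, 69.4, 62.9 and 56.3 FPKM at D105, and 109, 130 and 98.8 FPKM at D135. All D135 values exceeded all others, with a log2 change of 0.83 ± 0.17 from D105 (adjusted p = 0.0081). NDUFS5 had 71.4, 55.2 and 42.5 FPKM at D85, 86.6, 71.0 and 55.1 FPKM at D105, and 125, 99.0 and 117 FPKM at D135. Its change of 0.69 ± 0.22 (adjusted p = 0.040) lost the call when D85 replicate 2, D105 replicate 2 or 3, or any D135 library was left out (adjusted p = 0.056 to 0.115).

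NDUFA12 and NDUFS6 had the largest changes of complex I from D105 to D135, but both rest on low D105 values. NDUFA12, an accessory subunit, had 24.1, 16.6 and 20.6 FPKM at D85, 11.2, 8.16 and 8.61 FPKM at D105, and 19.9, 41.7 and 35.3 FPKM at D135. The D105 libraries were the lowest of the 9, and D85 and D135 overlapped. Its log2 change was 1.64 ± 0.27 from D105 to D135 (adjusted p = 0.0038), 0.59 from D85 to D135 (adjusted p = 0.11) and -1.05 from D85 to D105 (adjusted p = 0.18). NDUFS6, an accessory zinc-binding subunit, was listed at 0 in replicate 1 of D105, and at 8.82 and 9.11 FPKM in the others. It had 9.24, 7.35 and 10.6 FPKM at D85 and 14.2, 14.2 and 12.5 FPKM at D135. A listed 0 may be a failed estimate, and NDUFS6 was not called (log2 change 1.66 ± 0.79, adjusted p = 0.13). Without that library the change was 0.55 (adjusted p = 0.034).

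The lowest changes of complex I belonged to NDUFB2 and NDUFA6, both accessory subunits. NDUFB2 had 2.58, 14.8 and 2.53 FPKM at D85, 4.10, 8.99 and 8.35 FPKM at D105, and 3.17, 3.85 and 4.6 FPKM at D135. NDUFA6 had 18.7, 21.2 and 22.0 FPKM at D85, 41.4, 23.8 and 11.5 FPKM at D105, and 17.6, 28.0 and 14.6 FPKM at D135. In both, single libraries of 1 day differed by more than the days did, and neither was called (adjusted p = 0.36 and 0.71). NDUFA1 had 4.28, 3.71 and 4.17 FPKM at D85, 6.38, 5.94 and 7.12 FPKM at D105, and 2.71, 12.5 and 7.30 FPKM at D135, so that D135 spanned the other days. The sign of the change between D135 and D105 differed between scalings for NDUFA1 and NDUFA6. NDUFA2 varied more than 3-fold between the libraries of each day, and was not called in any comparison.

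Complex II, succinate dehydrogenase, also acts in the citric acid cycle, and all 4 of its genes rose together. SDHA, the flavin subunit that oxidises succinate, had 66.1, 69.3 and 56.4 FPKM at D85, 86.1, 68.5 and 84.5 FPKM at D105, and 135, 157 and 108 FPKM at D135. SDHB, the iron-sulfur subunit, had 6.03, 6.56 and 5.75 FPKM at D85, 8.20, 7.04 and 7.73 FPKM at D105, and 14.7, 19.5 and 15.1 FPKM at D135. Neither gene had a D135 library within the range of an earlier day. The log2 changes from D105 were 0.73 ± 0.16 for SDHA (adjusted p = 0.010) and 1.0 ± 0.12 for SDHB (adjusted p = 0.0015). The SDHB locus joins this gene with PADI2 in the table, so the level is that of the joined locus.

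SDHC and SDHD encode the membrane anchors of complex II. SDHD had 41.9, 33.0 and 36.1 FPKM at D85, 45.1, 41.5 and 45.8 FPKM at D105, and 72.8, 80.4 and 76.0 FPKM at D135, a log2 change of 0.78 ± 0.11 from D105 (adjusted p = 0.0020). SDHC had 15.2, 14.8 and 9.59 FPKM at D85, 17.3, 12.6 and 14.3 FPKM at D105, and 21.4, 19.9 and 27.1 FPKM at D135. Its D135 libraries were the 3 highest, yet the call from D105 (0.59 ± 0.20, adjusted p = 0.048) was lost without the filter on low values and without any of 7 libraries (the exceptions were D85 replicate 3 and D105 replicate 1). A second locus described as the same anchor as SDHD, LOC780772, ran another way, with 5.98, 3.94 and 5.43 FPKM at D85, 0, 5.39 and 0.0803 FPKM at D105, and 0, 0.228 and 0.0865 FPKM at D135. It lies at a small part of the SDHD level, and reads of near-identical copies may have been divided between such loci.

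Complex III passes electrons from ubiquinol to cytochrome c. UQCRH, the hinge protein that binds cytochrome c1, was the only member by symbol. It had 157, 129.7 and 116 FPKM at D85, 147, 127 and 146 FPKM at D105, and 181, 235 and 169 FPKM at D135. The D135 libraries were the 3 highest, with a log2 change of 0.47 ± 0.16 from D105 (adjusted p = 0.051) and 0.53 from D85 (adjusted p = 0.027). The call from D85 was lost without D85 replicate 2 or 3 or D135 replicate 2. With a median-of-ratios scaling in place of the deposited one, the change from D105 was 0.90 (adjusted p = 0.010).

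Of the 8 further complex III genes taken by product description, 6 were called higher at D135 than at D105 and 0 lower. Over all loci tested, the shares were 4.47% and 35.0%. UQCRC2 (LOC101102527), a core subunit, had 40.3, 35.0 and 37.4 FPKM at D85, 40.8, 47.8 and 44 FPKM at D105, and 105, 123 and 91.9 FPKM at D135. UQCRC1 (LOC101110095), the other core subunit, had 30.6, 33.7 and 32.8 FPKM at D85, 35.6, 30.3 and 34.4 FPKM at D105, and 68.9, 85.6 and 53.2 FPKM at D135. In both the D135 libraries stood clear of all others. The log2 changes from D105 were 1.24 ± 0.12 for UQCRC2 (adjusted p = 0.00094) and 1.01 ± 0.16 for UQCRC1 (adjusted p = 0.0037). CYC1 (LOC101113599), the cytochrome c1 that hands electrons to cytochrome c, changed by 0.95 ± 0.23 (adjusted p = 0.015). UQCRB, UQCR10 and UQCR11, small subunits, changed by 0.85, 0.81 and 0.89 (adjusted p = 0.0050, 0.0079 and 0.017), and UQCR11 lost its call without D135 replicate 3 (0.73, adjusted p = 0.053).

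The remaining complex III loci were uneven between libraries of 1 day and were not called from D105. UQCRFS1 (LOC101113001), the Rieske iron-sulfur protein, had 59.4, 1.74 and 1.80 FPKM at D85, 1.17, 59.8 and 11.2 FPKM at D105, and 91.8, 88.3 and 80.5 FPKM at D135. It was even at D135 and split between high and very low values on the earlier days. UQCRQ (LOC101121420), a small subunit, had 88.3, 76.7 and 18.9 FPKM at D85, 109, 88.6 and 30.7 FPKM at D105, and 187, 238 and 179 FPKM at D135. Replicate 3 was the low library of both earlier days, and the adjusted p at D135 was 0.084 from D105 and 0.036 from D85. The call from D85 was lost without D85 replicate 3 (1.27) or any D135 library.

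Complex IV, cytochrome c oxidase, had 3 members by symbol. COX5A, a structural subunit, had 27.9, 24.2 and 26.2 FPKM at D85, 28.1, 28.1 and 26.8 FPKM at D105, and 52.8, 67.1 and 55.1 FPKM at D135. The earlier days were nearly level and D135 was separate, with a log2 change of 1.04 ± 0.11 from D105 (adjusted p = 0.00099). NDUFA4, named for complex I and later assigned to complex IV, had 89.4, 129.6 and 160.1 FPKM at D85, 197, 169 and 108 FPKM at D105, and 333, 242 and 203 FPKM at D135. Its D135 libraries were the 3 highest, but the wide spread left it uncalled from D105 (0.72 ± 0.30, adjusted p = 0.088), while D135 against D85 was called (1.04, adjusted p = 0.023) but not without D85 replicate 1 or 2 or D135 replicate 1 or 2. Its paralogue NDUFA4L2, induced by low oxygen in other cells, stayed between 1.71 and 7.71 FPKM, was not called in any comparison, and changed sign between scalings.

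By product description, 12 further complex IV genes were found, and 10 passed the filter of at least 1 FPKM in at least 3 libraries. At D135 against D105, 6 were called higher and 1 lower (4.47% and 35.0% of all loci). COX4I1 (LOC101105179), which binds regulatory nucleotides, had 58.4, 55.6 and 55.4 FPKM at D85, 78.5, 68.2 and 78.4 FPKM at D105, and 154.4, 180.3 and 119 FPKM at D135. The days followed one another without overlap, with log2 changes of 0.98 ± 0.15 at D135 from D105 (adjusted p = 0.0029) and 0.40 at D105 from D85 (adjusted p = 0.34). COX5B, COX6B1 and COX7B, structural subunits without a muscle form, changed by 0.98, 0.80 and 0.59 from D105 (adjusted p = 0.0088, 0.0096 and 0.031). COX7B lost its call without D105 replicate 2 or 3 or D135 replicate 1 or 2. COX8A (LOC106991840) was uneven, with 28.2, 35.5 and 0.426 FPKM at D85, 34.3, 26.9 and 25.4 FPKM at D105, and 17.4, 0.560 and 40.7 FPKM at D135, and was not called. COX6B2 and COX7B2, forms known from testis, reached at most 0.240 and 0.202 FPKM and did not pass the filter.

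COX6A2 and COX6A1, the muscle form and the widely expressed form of subunit 6A, moved in opposite directions at D135 on the deposited scale. COX6A2 (LOC101106131) had 129.9, 128.9 and 121.1 FPKM at D85, 115.3, 159.5 and 123.5 FPKM at D105, and 342, 322 and 307 FPKM at D135. COX6A1 (LOC101117965) had 61.0, 51.3 and 46.0 FPKM at D85, 54.4, 52.5 and 45.9 FPKM at D105, and 27.5, 39.8 and 32.7 FPKM at D135. The earlier days overlapped in both, while at D135 every library was above them for COX6A2 and below them for COX6A1. The log2 change from D105 was 1.29 ± 0.13 for COX6A2 (adjusted p = 0.00094) and -0.61 ± 0.16 for COX6A1 (adjusted p = 0.019). The median change of all loci was -0.33, and the call of COX6A1 was lost with median-of-ratios scaling (-0.18, adjusted p = 0.51) and with quantile normalization (-0.49, adjusted p = 0.059). It was also lost without replicate 1 of D105, replicate 2 of D105 or replicate 1 of D135 (highest adjusted p = 0.059).

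The ratio of COX6A2 to COX6A1 within a library does not depend on the scaling. It was 2.13, 2.51 and 2.63 at D85, 2.12, 3.04 and 2.69 at D105, and 12.4, 8.09 and 9.36 at D135. The D135 ratios lay far above the rest, which overlapped. On the log2 scale with 1 FPKM added, the ratio averaged 1.26 ± 0.16 at D85, 1.35 ± 0.26 at D105 and 3.25 ± 0.31 at D135 (SD, n = 3 each). An exact permutation test of the days over the 9 libraries gave p = 0.021, and 0.057 after Benjamini-Hochberg adjustment over the 8 isoform pairs tested, which misses the threshold. With 1 library left out the adjusted p was 0.057 to 0.105, save for 0.043 without replicate 3 of D135. The smallest p that the 1680 arrangements can give is 0.0036.

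COX7A1 had the largest called change of all subunit genes. It encodes the heart and muscle form of subunit 7A (LOC101121285), and had 24.4, 23.3 and 26.4 FPKM at D85, 44, 50.1 and 48.1 FPKM at D105, and 215.5, 272.1 and 173.5 FPKM at D135. The days were separate from one another, each later one higher. The log2 change was 2.17 ± 0.16 at D135 from D105 (adjusted p = 0.0005), 3.08 at D135 from D85 (adjusted p = 7.6e-05) and 0.91 at D105 from D85, which did not pass (adjusted p = 0.089). Its lowest and highest change from D105 with 1 library left out were 2.01 and 2.33. COX7A1 is also known from brown fat, and UCP1 was at 6.20 FPKM in the D135 library with the highest COX7A1. In the other D135 libraries UCP1 was listed at 0 and COX7A1 was at 215.5 and 173.5 FPKM. The other brown adipocyte markers are given above, and the part of brown fat cells in these values was not tested. COX7A2, the widely expressed partner, was not analysed here, so no ratio is given, and the related assembly protein COX7A2L (LOC101115694) stayed between 6.8 and 16.4 FPKM and was not called.

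COX4I2, the oxygen-sensitive form of subunit 4 known best from lung, was low beside COX4I1. It had 1.09, 1.41 and 0.691 FPKM at D85, 2.26, 2.52 and 3.38 FPKM at D105, and 2.59, 3.88 and 4.02 FPKM at D135. D85 lay below the later days, which overlapped. COX4I2 was called higher at D135 than at D85 (log2 change 1.12, adjusted p = 0.0026), while D105 against D85 had 0.85 (adjusted p = 0.15). The ratio of COX4I2 to COX4I1 did not pass over days (exact permutation test, adjusted p = 0.14), but did without replicate 3 of D135 (adjusted p = 0.043).

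**Figure D3:**
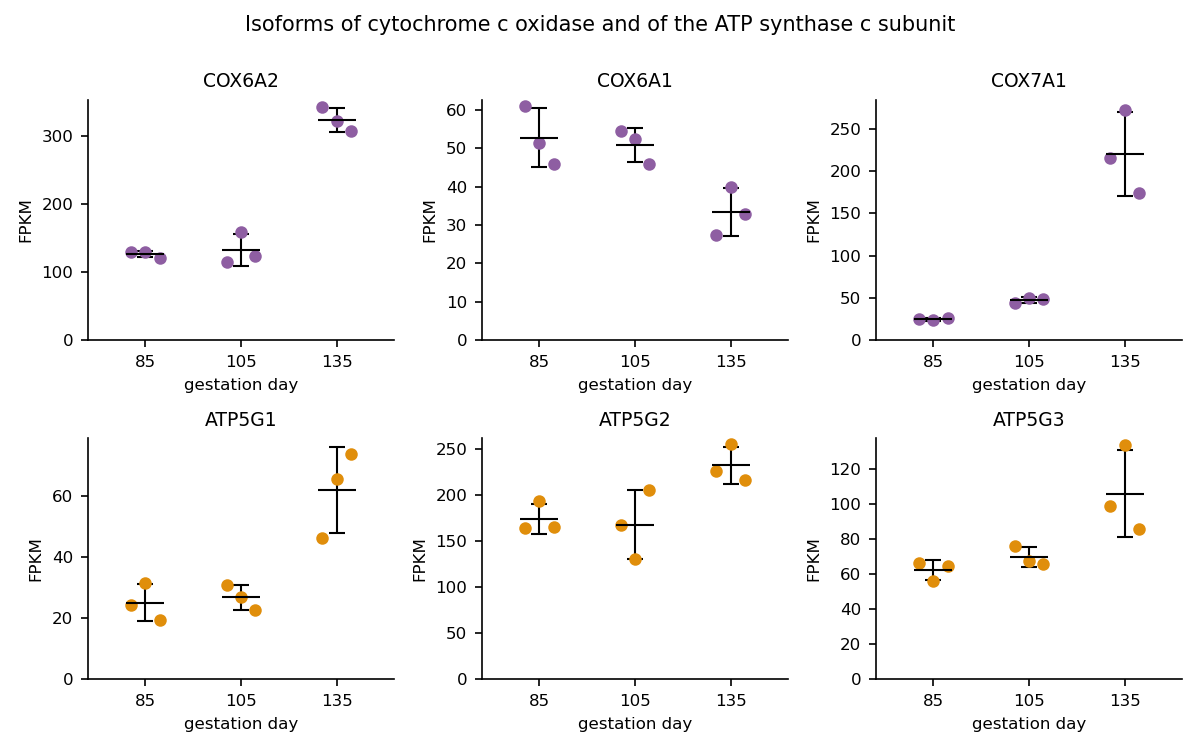
FPKM of 3 cytochrome c oxidase isoforms and of the 3 genes for the ATP synthase c subunit in each library (points), with the mean and SD of each day (bars, n = 3). COX6A2, COX7A1 and ATP5G1 are highest at D135, COX6A1 is lowest there, and each panel has its own scale from 0.

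Complex V, the ATP synthase, held the 2 genes with the highest means. ATP5B and ATP5A1, the catalytic beta and the alpha subunit of the F1 head, led all 60 genes with means of 266 and 211 FPKM. ATP5B had 200.3, 187 and 184 FPKM at D85, 225, 203 and 233 FPKM at D105, and 376, 453 and 337 FPKM at D135. ATP5A1 had 189, 162 and 161 FPKM at D85, 181, 172 and 171 FPKM at D105, and 262, 341 and 266 FPKM at D135. In both all D135 libraries were above the others, with log2 changes from D105 of 0.81 ± 0.13 for ATP5B (adjusted p = 0.0033) and 0.72 ± 0.13 for ATP5A1 (adjusted p = 0.0049). A second locus described as the alpha subunit, LOC105611645, had 21.6 to 27.4 FPKM at D85, 24.4 to 25.3 FPKM at D105 and 37.9 to 51.7 FPKM at D135, and may share reads with ATP5A1.

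Of the 16 complex V genes, 11 were called higher at D135 than at D105 (4.47% of all loci). The other 5 did not pass, and the median log2 change was 0.64. The called genes include ATP5C1, the gamma subunit of the rotor (0.63 ± 0.12, adjusted p = 0.0056), and ATP5O, which joins the head to the stator (0.72 ± 0.14, adjusted p = 0.0064). ATP5F1, ATP5H, ATP5J and ATP5J2 of the stator and membrane part were also called, with changes of 0.80, 0.58, 0.58 and 0.84. ATP5D, the delta subunit of the rotor, had 39.8, 54.1 and 37.8 FPKM at D85, 51.0, 20.2 and 24.4 FPKM at D105, and 32.9, 43.4 and 71.0 FPKM at D135. Its days overlapped and it was not called (adjusted p = 0.21). ATP5I, subunit e at the dimer interface of the membrane part, had 72.9, 62.3 and 62.8 FPKM at D85, 89.0, 64.0 and 61.0 FPKM at D105, and 138, 181 and 110.3 FPKM at D135. Its log2 change was 0.99 ± 0.21 (adjusted p = 0.0084). ATP5S and ATP5SL carry the prefix but are not structural subunits of the enzyme. They had changes of 0.36 and 0.05 (adjusted p = 0.20 and 0.84).

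ATP5L, subunit g of the membrane part, was uneven at D135. It had 77.8, 63.8 and 66.6 FPKM at D85, 63.5, 60.1 and 63.5 FPKM at D105, and 22.3, 94.5 and 75.7 FPKM at D135. Replicate 1 of D135 was the lowest of all and replicate 2 the highest, and the gene was not called (log2 change -0.19 ± 0.46, adjusted p = 0.76). Without that replicate 1 the change was 0.43 (adjusted p = 0.047). Its sign also differed between scalings.

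ATP5G1, ATP5G2 and ATP5G3 encode the same mature c subunit of the proton-driven ring with different import sequences. ATP5G1 had 24.4, 31.5 and 19.4 FPKM at D85, 31.0, 26.8 and 22.7 FPKM at D105, and 46.4, 65.7 and 73.9 FPKM at D135. ATP5G2 had 164, 193 and 165 FPKM at D85, 168, 130.2 and 206 FPKM at D105, and 226, 255 and 216 FPKM at D135. ATP5G3 had 66.4, 56.0 and 64.9 FPKM at D85, 76.1, 67.5 and 65.8 FPKM at D105, and 99.0, 134 and 85.7 FPKM at D135. ATP5G2 was the highest and ATP5G1 the lowest of the 3 in every library, and each had its 3 highest values at D135. The log2 changes from D105 were 1.16 ± 0.22 for ATP5G1 (adjusted p = 0.0064), 0.49 ± 0.17 for ATP5G2 (adjusted p = 0.052) and 0.58 ± 0.16 for ATP5G3 (adjusted p = 0.026). ATP5G3 lost its call without D105 replicate 2 or 3 or D135 replicate 2, and ATP5G2 gained one without D105 replicate 3 (0.65, adjusted p = 0.023). ATP5G1 stood at 0.149, 0.163 and 0.117 of ATP5G2 at D85, 0.185, 0.206 and 0.110 at D105, and 0.206, 0.257 and 0.342 at D135. The ratio did not pass over days (exact permutation test, p = 0.082, adjusted p = 0.14).

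Of 4 complex V genes taken by description, 3 were tested and 2 were called higher at D135 than at D105 (4.47% of all loci). These were ATPIF1 (LOC101110916), the inhibitor of ATP hydrolysis, with a log2 change of 0.58 ± 0.15 from D105 (adjusted p = 0.016), and USMG5 (LOC101111410), a small membrane subunit, with 0.53 ± 0.15 (adjusted p = 0.027). ATPIF1 lost its call without D105 replicate 3 or D135 replicate 2, and USMG5 without D105 replicate 2 or D135 replicate 2 or 3. ATP5E (LOC105606223), the epsilon subunit, had 2.02, 126 and 127 FPKM at D85, 140.5, 116 and 119.99 FPKM at D105, and 188, 221 and 182 FPKM at D135. Replicate 1 of D85 was far below the others, and the gene was not called (adjusted p = 0.71). Without that library the change from D105 to D135 was 0.65 (adjusted p = 0.0092). MP68 (LOC105603125) did not pass the filter, with at most 0.614 FPKM.

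**Figure D4:**
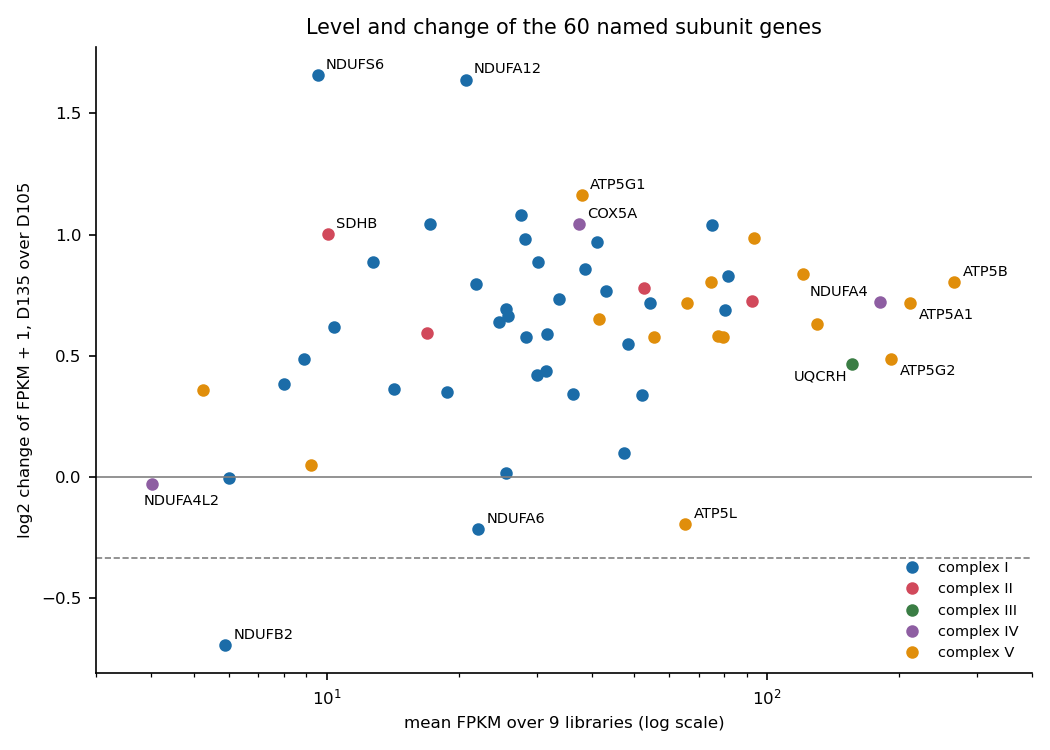
Mean FPKM over the 9 libraries (log axis) against the log2 change of FPKM + 1 between D135 and D105, a point per named gene coloured by complex, with the dashed line at the median of all tested loci. The points are widely scattered (Pearson r = 0.233), with NDUFS6 and NDUFA12 highest and NDUFB2 lowest.

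Change was only loosely tied to level. Across the 60 genes, the log2 mean level and the log2 change from D105 had a Pearson r of 0.233 and a Spearman rho of 0.215, a description over genes that share all libraries. The median log2 changes lay close together, at 0.65 for complex I, 0.75 for complex II and 0.64 for complex V. With the loci taken by description the medians were 0.95 over 9 genes of complex III and 0.72 over 13 of complex IV. The differences between complexes were not tested.

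The assembly factors and regulators that serve these enzymes were counted the same way. Over all loci tested, 4.47% were called higher at D135 than at D105 and 35.0% lower, with a median log2 change of -0.33. Differences of the small groups below from these shares were not tested. Of 13 tested complex I assembly factors 1 was called higher and 0 lower at D135 than at D105, with a median log2 change of 0.22. That gene was ECSIT, with 8.13, 10.5 and 8.47 FPKM at D85, 9.76, 8.5 and 9.72 FPKM at D105, and 15.2, 16.3 and 14.8 FPKM at D135. Its change was 0.67 ± 0.11 (adjusted p = 0.0041). Of 3 assembly factors of complex II none passed (limma, 0 at an unadjusted p under 0.05). LYRM7, which handles the Rieske protein of complex III, rose by 0.81 (adjusted p = 0.041), LRPPRC, needed for mitochondrial mRNA, by 0.33 (adjusted p = 0.025), and ATPAF1, which assembles the F1 head, by 0.62 (adjusted p = 0.010). They were the called genes among 2 assembly factors of complex III, 6 of complex IV and 4 of complex V. From D85 to D135, limma called ATPAF1 (0.60, adjusted p = 0.0086) but not LYRM7 (0.46, adjusted p = 0.18) or LRPPRC (0.14, adjusted p = 0.24). LYRM7 was low, with 0.910, 1.89 and 0.787 FPKM at D85, 0.475, 0.728 and 0.871 FPKM at D105, and 3.15, 1.32 and 1.67 FPKM at D135. Among 11 genes for supercomplexes and cristae 1 was called higher at D135 than at D105, IMMT of the cristae junctions (0.30, adjusted p = 0.032).

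Of 23 regulators of these genes, 3 were called higher at D135 than at D105 and 5 lower, with a median log2 change of -0.15. Over all loci 4.47% were called higher and 35.0% lower, with a median of -0.33, so the lower calls among the regulators were no more frequent than over all loci. PERM1, a muscle regulator of oxidative genes, had 1.21, 1.5 and 1.12 FPKM at D85, 1.86, 2.0 and 2.41 FPKM at D105, and 6.88, 6.8 and 5.16 FPKM at D135, a change of 1.23 ± 0.13 (adjusted p = 0.0011). ESRRA, the nuclear receptor that partners PGC-1 coactivators, rose by 0.52 (adjusted p = 0.010) and PPARA, a receptor for fatty acids, by 0.34 (adjusted p = 0.045). On the deposited scale the 5 lower ones were PPRC1, GABPB1, TFAM, POLRMT and MEF2C, with changes of -0.53, -0.46, -0.45, -0.56 and -1.10. With median-of-ratios scaling 7.41% of all loci were called lower, in place of 35.0%, and the median change of all loci was -0.005, in place of -0.33. Whether these 5 genes stay lower under that scaling is not given, so their falls hold for the deposited scale alone. TFAM and POLRMT act in transcription of mitochondrial DNA, and GABPB1 is a subunit of a factor that binds promoters of respiratory genes. PPARGC1A, which encodes the coactivator PGC-1 alpha, was not called, with 0.18 (adjusted p = 0.17).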

How the data were processed

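Per the labels' protocols RNA was extracted with Trizol, and the deposited values are the authors' FPKM, in 1 table with 9 library columns whose headers name the unit. The submitters' processing notes list cutadapt, Bowtie2 and TopHat2; genome build, assembly and counting: not given in the sources used here. FPKM holds no counts and read depth is unknown, so no count test or counting interval was made. Replicate numbers come from the titles, and 0 columns of other samples were present.

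Members and gene lists were chosen with earlier results of these data known. The test used limma 3.58.1 (R 4.3.3), with a variance trend, on log2(FPKM + 1) of the 13086 loci at or above 1 FPKM in at least 3 libraries, all 60 members among them. A single fit by day took the 9 libraries; tests were two-sided, adjusted by Benjamini-Hochberg over all tested loci, with a threshold of 0.05. This scale understates changes of low genes. The fit was tested on simulated data. Isoform ratios were tested over the days with an exact permutation test of the F statistic (scipy 1.17.1), adjusted over 8 of 10 listed pairs. Loci joining 2 genes (3 members) were kept. Product descriptions come from the table; 3 genes taken this way also carry a member's current symbol in a RefSeq table of ARS-UI_Ramb_v3.0, used for names alone. The text names isoform pairs, the 2 highest genes, 2 largest and 2 smallest changes per complex, genes called lower, genes that fail the filter and genes whose direction varies with scaling. Other genes were chosen with their values known. Alternatives varied the pseudocount, filter, scaling, variance model, weights, loci per name, replicate block and libraries. A single member is counted in the totals but not reported here by itself.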

Additional observations from a re-analysis of the deposited data

How the results depend on the processing

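The count of members called at D135 against D105 was 35 to 46 over the other settings and 30 to 39 with 1 library left out, against 39. For D135 against D85 it was 39 to 48 over the other settings and 35 to 42 with 1 library left out, against 42, and over any day (43.2% of all loci) 34 to 41, against 42. For D105 against D85 it was 0 in every setting. The same 29 members were higher at D135 than at D105 in each of the 9 fits with 1 library left out and in 3 other scalings. Median-of-ratios scaling moved the median change of all loci from -0.33 to -0.00 and gave the 46. No pairing of libraries by replicate number was evident, as deviations of same-numbered libraries over all tested loci correlated at -0.0659 to 0.0605. Differently numbered libraries were not set beside them, and a shared batch cannot be judged from these values. With the replicate block the counts were 37, 40 and 38, and 0 for D105 against D85. Isoform ratios are given as the log2 ratio at D135 minus that at D85. COX6A2 over COX6A1 was 1.83 to 2.13 with 1 library left out, and passed only without D135 replicate 3 (adjusted p = 0.043). Its adjusted p in the permutation test was 0.105 without D85 replicate 3, 0.086 with a pseudocount of 0.1 and 0.11 with the replicate block. COX4I2 over COX4I1 changed sign with a pseudocount of 0.1 (0.25, against -0.26), and ranged from -0.510 to -0.0833 with 1 library left out, passing without D135 replicate 3 (adjusted p = 0.043). COX7B2 over COX7B passed (-0.90, exact permutation test, adjusted p = 0.029) but not with the replicate block (adjusted p = 0.11), without D85 replicate 2 or 3 or without any D105 library (adjusted p = 0.057 to 0.105), and ranged from -1.07 to -0.72. COX6B2 over COX6B1 ranged from -0.92 to -0.75, and passed without D85 replicate 1 or D135 replicate 3 (adjusted p = 0.043). COX7B2 and COX6B2 were near 0, and these ratios with 1 FPKM added mostly carry the level of COX7B and COX6B1. ATP5L at D135 against D105 ranged from -0.58 to 0.43 with 1 library left out, and of these fits changed sign only without D135 replicate 1. For these the cause was not tested. Of the alternatives for single named genes, 1805 stayed on the same side of the threshold, 56 lost the call, 31 gained it, and 1 changed sign and gained a call. Of the 1805, 39 changed sign with no call in either setting. With no counts, precision at low levels is unknown.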
